A study of Rattus norvegicus with 24 samples.

Results

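The expression array data describe what 2 inhaled exposures together, cigarette smoke and Iraqi sand, left in the rat lung, set against filtered air. They take in 8 of the 24 arrays of the study, 4 from rats given smoke plus Iraqi sand (rats 402, 404, 405 and 406) and 4 from rats given air by both routes (rats 102, 103, 104 and 105), chosen by the treatment codes of the sample titles. All 14217 genes with a probe set of exactly 1 gene symbol were tested, each by its brightest probe set over the 24 arrays. Arrays of rats given smoke alone, Iraqi sand alone or smoke plus silica, 4 of each, show where the combined group differed.

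Every rat was an adult male Sprague-Dawley, an outbred laboratory strain, labelled as 17 weeks old at sampling, while the series text gives 10 to 15 weeks. The combined group breathed smoke nose-only, 3 hours daily and 5 days weekly, over 5 weeks by the treatment label and 6 weeks by the series text. The smoke carried 0.48 mg/L of wet total particulate matter. Over the last 2 weeks the rats also breathed sand at 1 mg per cubic metre with the whole body, 18 hours daily and 7 days weekly. Rats of the air group went through both routes with air in place of smoke and sand. Each array holds RNA of the right caudal lobe of 1 rat, a mixture of all lung cells, so that fewer cells of a type and less RNA per cell cannot be told apart. What the sand is made of, the time from the last smoke session to sampling and the hour of sampling are not in the labels.

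Inhaled particles that reach the alveoli are taken up by resident macrophages, which digest what they can in lysosomes and release chemokines. The chemokines of the Cxcl1 and Cxcl2 family bind the receptors Cxcr1 and Cxcr2 and draw neutrophils from the blood. Smoke also carries hydrocarbons that switch on the aryl hydrocarbon receptor and oxidants that switch on the antioxidant factor Nrf2, and lung cells keep a circadian clock in which transcriptional repressors and activators alternate over the day.

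Values are log2 expression levels. The tissue label was met by the lung's defining genes: Sftpc, the surfactant protein of alveolar type 2 cells, lay between 14.82 and 14.90 in the 4 smoke plus sand rats and between 14.79 and 14.87 in the 4 air rats. Scgb1a1, the club cell protein, lay between 14.78 and 14.97 after smoke plus sand and between 14.90 and 14.97 in air. Array medians were 7.26 to 7.32. RNA integrity numbers were known for 3 rats of each group and did not overlap, at 8.7 to 9.2 after smoke plus sand and 9.3 to 9.4 in air. By the RNA trace grade in the labels, rats 402 and 406 were excellent and rats 404 and 405 good, while all 4 air rats were excellent. Rat 104 of the air group carried heart muscle transcripts: Myl7, the atrial myosin light chain, was at 4.74 to 7.98 in the smoke plus sand rats, and in the air group at 12.04 in rat 104 and 5.68 to 7.58 in the other 3. Rat 302, of the sand group, stood far from all others, with 1446 genes at least 2-fold from its group mates. It is part of the shared estimate of spread, and counts are given with and without it.

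After smoke plus sand, 3 neutrophil chemokines, several lysosome and phagocyte genes, complement C3 and 4 clock repressors rose, and the vascular factors Klf2 and Klf4 and a few lymphocyte and clock genes fell. Of 14217 genes, 139 (0.978%) passed an adjusted p of 0.05 with limma and Benjamini-Hochberg adjustment. Higher after smoke plus sand were 91 (0.64%), with a median change of 0.70 on the log2 scale, and lower were 48 (0.338%), with a median of -0.52. At least 2-fold changes were 21 rises and 6 falls. The median over all genes was -0.011. In 134 of the 139 the 4 smoke plus sand values did not overlap the 4 air values, which over all genes was so for 1815 (12.8%). At an unadjusted p of 0.05, 1552 of the 14217 genes passed. The list counts below are to be read beside these shares over all genes. The count rested on every rat. Leaving out air rats 102, 103, 104 or 105 gave 53, 75, 91 or 91 genes, and leaving out smoke plus sand rats 402, 404, 405 or 406 gave 86, 82, 120 or 54. In all 8 of these fits 39 genes kept their call, 32 rises and 7 falls. Without rat 302 in the shared fit, 564 genes passed and the 139 were all among them. On the 8 arrays of the 2 groups alone 206 genes passed, 101 of them among the 139, and the calls that ended there include Chia, Cd2, Spon2, Mreg, Egr2, Arid5b and Nipbl. On the 19 arrays with an RNA integrity number, which hold 3 smoke plus sand rats and 3 air rats, 13 genes passed with that number as a covariate and 7 without it. The 13 were all rises and include Cxcl1, Cxcr1, Gpnmb, Ctsd, Card14, Per2 and Cry1.

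**Figure D1:**
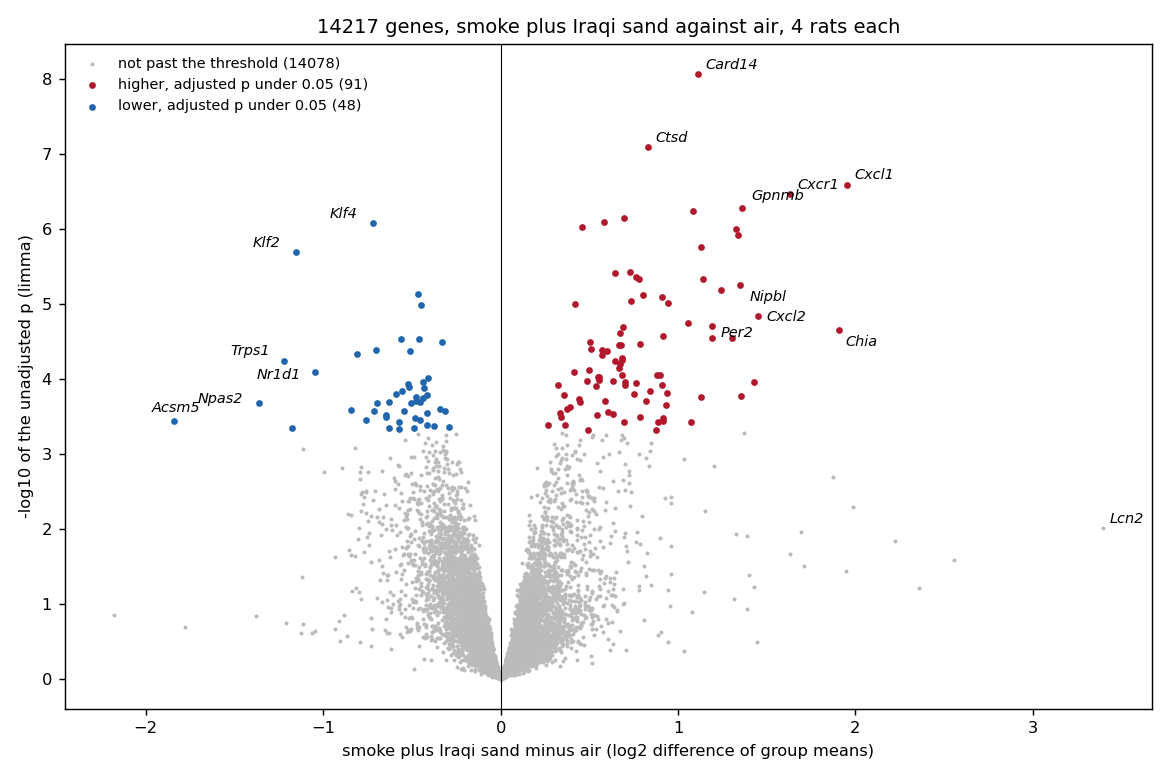
Each point is 1 of 14217 genes, with the log2 difference of smoke plus Iraqi sand minus air (4 rats each) on the x axis and the negative log10 of the unadjusted limma p on the y axis. The 91 red points are the rises and the 48 blue points the falls past the threshold. Lcn2, with a difference of 3.39 and an adjusted p of 0.23, lies among the grey points.

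Among chemokines and cytokines, 5 of 34 measured genes rose and 0 fell, with a median change of 0.13 over the list. The neutrophil chemokine Cxcl1 was at 10.90, 10.46, 9.55 and 10.75 in rats 402, 404, 405 and 406 of the smoke plus sand group, against 8.54, 8.66, 8.21 and 8.45 in rats 102, 103, 104 and 105 of the air group. Every exposed rat was above every air rat, and rat 405 was the lowest of its group. Cxcl1 was 3.87-fold higher (log2 change 1.95 ± 0.26 SE, adjusted p = 0.00122, limma), the largest rise past the threshold. Its close relative Cxcl2 was at 7.71, 7.61, 6.70 and 7.76 after smoke plus sand and at 5.97, 5.97, 5.86 and 6.19 in air, and here too rat 405 was the lowest of its group. Cxcl2 was 2.73-fold higher (1.45 ± 0.26, adjusted p = 0.00708). Cxcl6, another neutrophil-attracting chemokine, rose by 0.67 (adjusted p = 0.0104). Cxcl3 and Ppbp, the other measured members of that role, had changes of 0.40 and 0.09 and did not pass. Ccl3, which acts on monocytes and other leukocytes, rose by 0.91 (adjusted p = 0.00481), and the growth factor of macrophages and granulocytes Csf2 by 0.56 (adjusted p = 0.0209). The call of Csf2 ended without any 1 of rats 104, 105, 402 and 406, and its other probe set changed by 0.07. Tnf (0.18), Il6 (-0.07) and Il1b (0.14), the classical early cytokines, did not pass.

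The promoter windows of the 3 neutrophil chemokines that rose are shown because the binding motif of NF-kappa B, a factor of inflammatory genes, can be read in each. The windows run from 250 bases before to 50 after the gene's start in RefSeq on build GRCr8, and capitals mark matches to GGGNNTTTCC on either strand. Cxcl1 is at chr14:17479272-17479571, Cxcl2 at chr14:17467206-17467505 and Cxcl6 at chr14:17596368-17596667, all on the minus strand.
Cxcl1: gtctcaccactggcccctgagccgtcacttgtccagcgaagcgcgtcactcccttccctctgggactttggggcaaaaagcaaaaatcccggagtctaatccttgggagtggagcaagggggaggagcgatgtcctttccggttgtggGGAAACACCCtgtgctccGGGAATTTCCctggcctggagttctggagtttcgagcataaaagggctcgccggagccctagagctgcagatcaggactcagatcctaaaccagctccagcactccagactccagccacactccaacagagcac
Cxcl2: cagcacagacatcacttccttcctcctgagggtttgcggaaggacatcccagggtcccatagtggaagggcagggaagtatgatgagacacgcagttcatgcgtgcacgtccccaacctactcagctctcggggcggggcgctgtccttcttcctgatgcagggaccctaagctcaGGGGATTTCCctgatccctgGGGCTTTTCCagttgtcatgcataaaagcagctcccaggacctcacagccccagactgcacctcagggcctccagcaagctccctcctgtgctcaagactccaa
Cxcl6: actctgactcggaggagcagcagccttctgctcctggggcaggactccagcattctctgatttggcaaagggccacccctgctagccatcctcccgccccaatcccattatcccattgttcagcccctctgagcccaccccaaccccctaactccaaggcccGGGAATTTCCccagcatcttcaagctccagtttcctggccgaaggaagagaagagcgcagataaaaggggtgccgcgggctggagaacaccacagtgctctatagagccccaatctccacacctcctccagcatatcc
Cxcl1 and Cxcl2 have 2 matches each and Cxcl6 has 1. Over all 33469 windows of this length, not limited to tested genes or to 1 window per gene, 512 (1.53%) hold the motif. Of the 107 called genes with a window, each read in its first, it was in 5 of 71 rises (these 3, Bcat1 and Col17a1) and 0 of 36 falls. The window of Csf2 holds none, and Ccl3 was not matched to a window. The motif and the genes were chosen after the values were seen, and a match of letters is a description, not evidence of binding.

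Cxcr1, a receptor for such chemokines on neutrophils, was at 8.71, 9.15, 8.96 and 9.09 after smoke plus sand, against 7.19, 7.50, 7.57 and 7.11 in air. The 4 exposed rats were thus all above the 4 air rats, by 1.63 ± 0.22 on the log2 scale or 3.10-fold (adjusted p = 0.00122). It was the only 1 of 8 measured neutrophil genes past the threshold. Cxcr2, the other receptor, had 5.53 to 6.13 against 5.58 to 5.94 in air (change 0.04, adjusted p = 0.982), and the granulocyte receptor Csf3r a change of -0.07. S100a8 and S100a9, abundant proteins of neutrophils, had changes of -0.06 and 0.66 with adjusted p of 0.982 and 0.599. Lcn2, a secreted iron-carrier-binding protein of neutrophils and airway cells, was at 12.86, 12.95, 13.39 and 13.54 after smoke plus sand and at 11.22, 11.48, 6.20 and 10.27 in air. All 4 exposed values exceed all 4 air values, but rat 104 was far below the other air rats, and the difference of 3.39 ± 1.20 had an adjusted p of 0.23.

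The complement component C3 was at 12.76, 13.03, 12.69 and 12.70 after smoke plus sand, against 11.70, 10.89, 11.51 and 11.73 in air. It was 2.53-fold higher (1.34 ± 0.20, adjusted p = 0.00144) with no overlap, and it was the only 1 of 14 complement and acute phase genes to pass. The C1q chains C1qa, C1qb and C1qc, which start the classical pathway and are made by macrophages, had changes of 0.66, 0.72 and 0.59 with adjusted p of 0.134, 0.0998 and 0.179. Chia, an acidic chitinase of the airway and alveolar epithelium, was at 13.25, 13.59, 12.94 and 13.81 after smoke plus sand and at 11.95, 12.18, 9.95 and 11.90 in air. Rat 104 was far below the other air rats, and the rise of 1.90 ± 0.35 (adjusted p = 0.0096) kept its call without that rat. The call ended on the 8 arrays of the 2 groups alone (adjusted p = 0.077) and with the RNA integrity number as a covariate (1.37, adjusted p = 0.0934). The covariate fit leaves out rats 104 and 406, which had no such number, so its smaller change cannot be credited to RNA quality.

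Of 27 measured macrophage and phagocyte genes, 6 rose and 0 fell, the list's median change was 0.61, and 25 of the 27 had a change above 0. The mean of the list ran from 10.24 to 10.67 in the smoke plus sand rats and from 9.78 to 9.98 in the air rats, with no overlap. Gpnmb, a glycoprotein of lipid-laden and lysosome-loaded macrophages, was at 12.98, 13.46, 13.04 and 13.26 after smoke plus sand, against 11.73, 12.01, 12.02 and 11.54 in air. It was 2.57-fold higher (1.36 ± 0.19, adjusted p = 0.00129), with no overlap. Cd68, the lysosomal membrane protein used to mark macrophages, was at 10.88, 11.40, 10.97 and 11.30 in exposed rats and at 9.86, 10.13, 10.09 and 9.91 in air rats. It was 2.20-fold higher (adjusted p = 0.00355). The lysosomal protease Ctsd was at 13.15, 13.46, 13.12 and 13.24 after smoke plus sand, against 12.25, 12.49, 12.46 and 12.45 in air. This rise of 0.83 ± 0.10 (adjusted p = 5.76e-04) had the second smallest p of all genes, after Card14, a scaffold protein known from human skin to activate NF-kappa B, which rose by 1.11 ± 0.12 (adjusted p = 1.23e-04).

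The other 3 that rose were Mcoln2, a lysosomal cation channel (1.31, adjusted p = 0.0108), Arg1, the arginase of alternatively activated macrophages (1.24, adjusted p = 0.00438), and Lgals3, the lectin galectin-3 (0.69, adjusted p = 0.00129). None of these 6 lost its call when any 1 rat of the groups was left out. Members with large changes that did not pass were Spp1, the secreted phosphoprotein osteopontin (1.39, adjusted p = 0.596), Mmp12, macrophage elastase (1.33, adjusted p = 0.252), and Trem2, a lipid-sensing receptor (1.15, adjusted p = 0.182). Spp1 was at 6.85 and 6.86 in rats 402 and 404 and at 10.30 and 11.20 in rats 405 and 406, against 6.79 to 7.98 in air. Outside the list and chosen after their values were seen, further lysosome and phagocyte genes passed: the glycoprotein Cd63 (0.42), the proton pump subunit Atp6v1b2 (0.41), the cholesterol carrier Npc2 (0.34), the protease Ctsz (0.61), the sterol exporter Abcg1 (0.78) and the oxidase subunit Cyba (0.63). Adgre1, the F4/80 antigen that marks macrophages in mice, went the other way and fell by 0.64 (adjusted p = 0.0392), at 6.37 to 6.89 after smoke plus sand and 7.03 to 7.53 in air. Its call ended without any 1 of rats 102, 103, 104, 105, 404 and 406. Those of Atp6v1b2, Npc2, Ctsz and Cyba also ended without some rats, 102, 103, 404 and 406 being common to the 4.

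**Figure D2:**
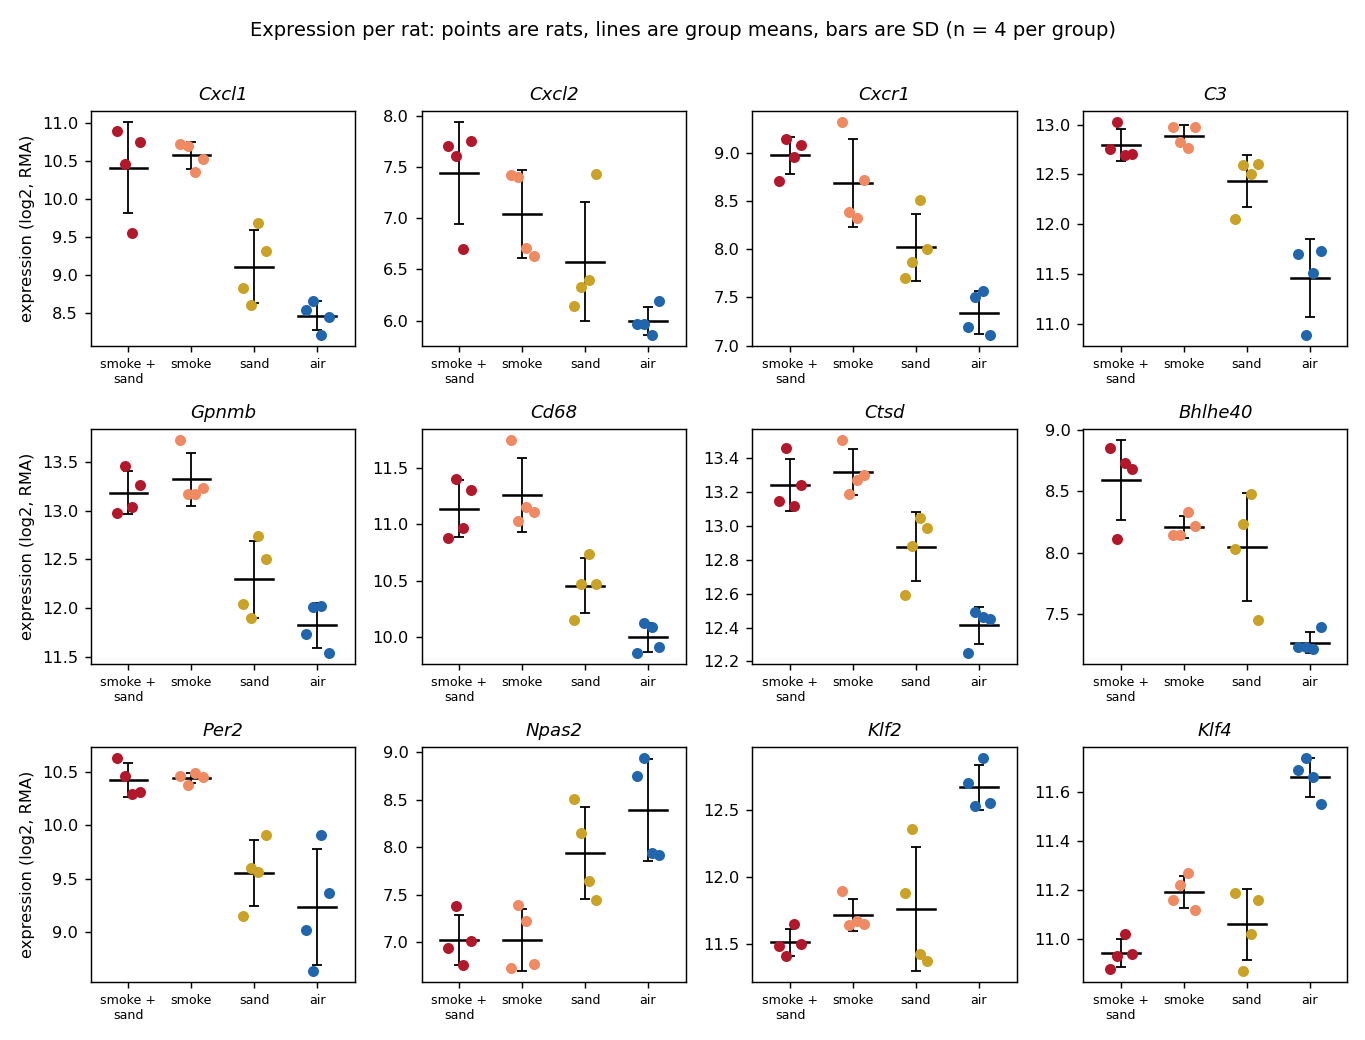
Log2 expression of 12 genes in each rat, with 4 points per group, the group mean as a line and the SD as a bar. In all 12 panels the smoke plus sand rats (left) and the air rats (right) do not overlap. The smoke rats lie close to the smoke plus sand rats, as in Cxcl1 with differences from air of 2.11 and 1.95.

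Of 19 measured clock genes, 5 rose and 2 fell, and the median change of the list was 0.04. Bhlhe40, a repressor that competes with the clock's activators, was at 8.85, 8.11, 8.73 and 8.68 after smoke plus sand, against 7.23, 7.23, 7.21 and 7.39 in air. All exposed rats lay above all air rats, which differed little among themselves, and the change was 1.33 ± 0.20, or 2.51-fold (adjusted p = 0.00129). Its relative Bhlhe41 rose by 1.09 (adjusted p = 0.00129). Per2, a repressor of the core loop, was at 10.63, 10.46, 10.29 and 10.31 in exposed rats and at 9.02, 8.64, 9.91 and 9.37 in air rats, and rose by 1.19 ± 0.22 (adjusted p = 0.00899). A second probe set of Per2, with a mean level of 8.44, changed by only 0.06 (limma adjusted p = 0.85 over all probe sets). Cry1, the partner of Per2, rose by 0.94 (adjusted p = 0.00524), with exposed rats at 9.49 to 9.57 and air rats at 8.36 to 8.81. Per1 (-0.42), Per3 (0.04) and Cry2 (0.05) did not pass.

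On the activating side, Npas2, which pairs with Bmal1, was at 6.94, 7.38, 6.76 and 7.02 after smoke plus sand, against 8.75, 8.94, 7.94 and 7.92 in air. It was 2.57-fold lower (-1.36 ± 0.30, adjusted p = 0.0296), and the call ended without any 1 of rats 102, 103, 402, 405 and 406. Bmal1 itself was at 6.64 to 7.09 after smoke plus sand, against 6.76 to 8.63 in air, where rat 104 lay among the exposed rats (change -0.84, adjusted p = 0.193). Nr1d1, the nuclear receptor REV-ERB alpha that represses Bmal1, was 2.07-fold lower (-1.05 ± 0.22, adjusted p = 0.0193), at 9.03, 8.53, 8.52 and 8.73 against 9.73, 9.20, 10.20 and 9.87 in air. Its call ended without any 1 of rats 102, 104, 105, 404, 405 and 406 and on the arrays of excellent grade (adjusted p = 0.0721), where the change of Npas2 had an adjusted p of 0.0627. Rora, which activates Bmal1, rose by 0.92 (adjusted p = 0.0401), a call that ended without any 1 of rats 102, 104, 105, 402, 404 and 406. The other probe set of Rora changed by 0.07. The output factors Dbp (0.34), Hlf (0.01) and Tef (0.15) did not pass. Within air, rats 102 and 103 had the highest Npas2 and Bmal1 and the lowest Per3, and rat 104 the highest Per2 and Nr1d1. The hour of sampling was not in the labels and its part was not tested.

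The core clock acts through E-boxes, so the windows of both basic helix-loop-helix repressors are shown, with capitals at the E-box CACGTG, a motif that reads the same on both strands. Bhlhe40 is at chr4:143174200-143174499 on the plus strand and Bhlhe41 at chr4:180569306-180569605 on the minus strand (RefSeq, GRCr8).
Bhlhe40: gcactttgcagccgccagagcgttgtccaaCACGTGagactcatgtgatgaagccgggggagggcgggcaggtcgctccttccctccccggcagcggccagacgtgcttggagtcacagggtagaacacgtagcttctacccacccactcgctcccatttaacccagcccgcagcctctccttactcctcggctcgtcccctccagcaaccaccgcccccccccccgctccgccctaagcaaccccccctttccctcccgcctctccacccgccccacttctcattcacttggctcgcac
Bhlhe41: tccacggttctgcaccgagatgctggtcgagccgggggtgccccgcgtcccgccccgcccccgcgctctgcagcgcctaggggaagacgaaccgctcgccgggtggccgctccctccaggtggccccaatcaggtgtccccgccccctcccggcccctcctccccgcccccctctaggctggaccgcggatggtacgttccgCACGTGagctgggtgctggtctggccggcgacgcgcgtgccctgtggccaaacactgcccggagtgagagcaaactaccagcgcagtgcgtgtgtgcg
The E-box begins at position -220 from the gene's start in Bhlhe40 and at -48 in Bhlhe41. Over the same 33469 windows, not limited to tested genes, it is in 2148 (6.42%). It was in 7 of 71 called rises and 2 of 36 called falls, each gene read in its first window. The windows of Per2, Nr1d1 and Npas2 hold none, and Cry1 was not matched to one. No match says only that these letters are not in the window. Outside the clock, the window of the protease gene Ctsd holds 2 matches. The motif and the genes shown were chosen after the values were seen, and a match of letters is not evidence of binding.

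The vascular factors Klf2 and Klf4 fell, while general endothelial genes did not pass. Among 11 endothelial genes 2 fell and 0 rose, with a median change of -0.26. Of the 11, 10 had a change below 0 and 4 had an unadjusted p under 0.05 with limma, as had 1552 of all 14217 genes. The list's mean, Klf2 and Klf4 included, was 10.65 to 10.81 after smoke plus sand and 10.96 to 11.17 in air. Klf2, the flow-responsive factor that keeps endothelium and T cells quiescent, was at 11.48, 11.41, 11.65 and 11.50 after smoke plus sand, against 12.70, 12.53, 12.89 and 12.55 in air. It was 2.23-fold lower (-1.15 ± 0.18, adjusted p = 0.0021), with no overlap, and 2 of its 4 other probe sets passed over all probe sets, at -0.57 and -1.39. Its relative Klf4 was at 10.88, 10.93, 11.02 and 10.94 in exposed rats and at 11.69, 11.74, 11.66 and 11.55 in air rats, a fall of 0.72 on the log2 scale (adjusted p = 0.00129). Both calls were kept without any 1 rat. The general endothelial genes Pecam1 (-0.01), Vwf (-0.08), Tek (-0.11), Kdr (-0.34) and Icam2 (-0.37) did not pass. Icam1, an adhesion molecule that leukocytes bind and not on that list, fell by 0.33 (adjusted p = 0.0114), at 12.38 to 12.46 against 12.72 to 12.80 in air, and was named after its values were seen.

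Of 20 T and NK cell genes, 1 fell and 0 rose, 14 had an unadjusted p under 0.05, and the list's median change was -0.62. Over all genes 0.338% fell, and 1552 of 14217 had such an unadjusted p with limma. In 14 of the 20 the exposed rats were all below the air rats, and in 1, the interleukin receptor Il7r, all above. The groups did not overlap, in either direction, in 12.8% of all genes. The list's mean was 7.84 to 8.20 after smoke plus sand and 8.50 to 8.67 in air. The 1 that passed was Cd2, an adhesion receptor (-0.63, adjusted p = 0.0479), at 7.70, 7.08, 7.28 and 7.32 against 8.36, 7.94, 7.96 and 7.63, so that rat 402 overlapped air rat 105. Its call ended without any 1 of rats 102, 103, 104, 404, 405 and 406. The T cell receptor chains Cd3d, Cd3e and Cd3g had changes of -0.79, -0.79 and -0.78 with adjusted p of 0.114, 0.181 and 0.14, and the granule proteins Nkg7, Gzmb and Prf1 changes of -0.66, -0.62 and -0.52. Without rat 302 in the fit, 7 of the 20 passed as falls and 1 as a rise. On the arrays of excellent grade 0 passed, with 2 smoke plus sand rats in place of 4. Spn (CD43, -0.84), the protease Ctsw (-0.57) and the receptor S1pr5 (-0.51), all known from T and NK cells, passed outside the list and were named after their values were seen, and each lost its call without any 1 of rats 102, 103, 104, 402, 404 and 406. B cell markers lay at a median of -0.41 over 5 genes, of which 0 passed.

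**Figure D3:**
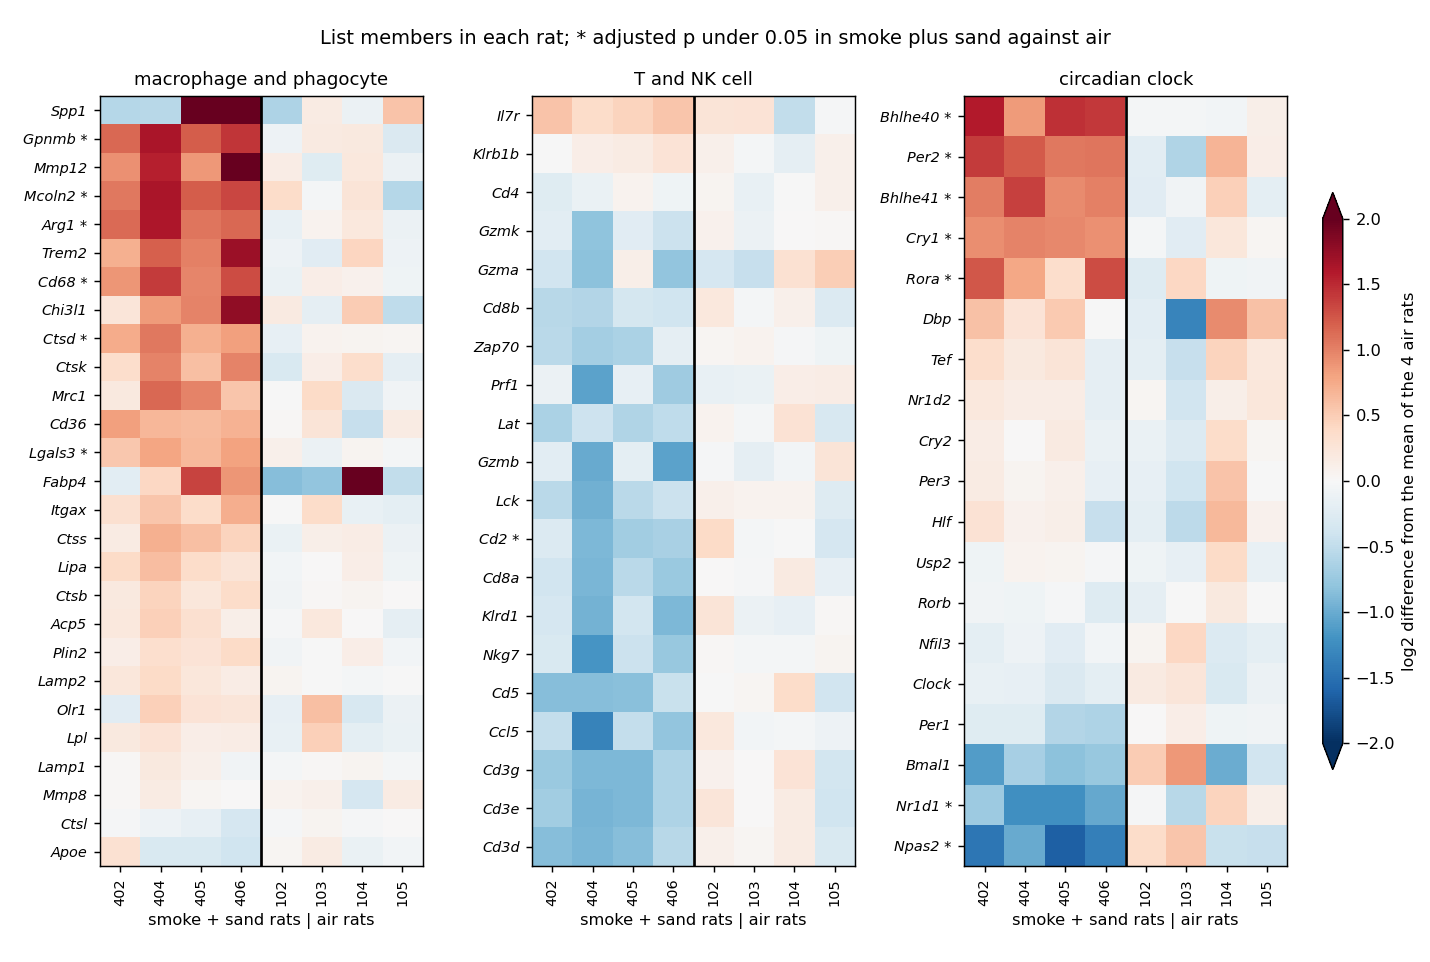
Colours give each rat's log2 difference from the mean of the 4 air rats for the members of 3 lists, ordered by the change, with smoke plus sand rats left and air rats right of the black line, and asterisks mark adjusted p under 0.05. Red fills most of the macrophage panel and blue most of the T and NK cell panel in all 4 exposed rats, while the clock panel holds 5 genes with rises at one end, 2 with falls at the other and many near white.

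No member of either list of classical smoke responses passed the threshold, while most Nrf2 antioxidant genes had a change above 0. Of 9 aryl hydrocarbon receptor genes 0 passed with limma and 1 had an unadjusted p under 0.05, and their median change was 0.09. Over all genes 1552 of 14217 had such an unadjusted p, a share near that of this list. Cyp1a1, the hydrocarbon-metabolising enzyme most induced through that receptor, was at 7.83, 7.38, 7.82 and 8.48 after smoke plus sand and at 9.04, 8.84, 7.76 and 8.31 in air (-0.60, adjusted p = 0.522). Cyp1b1 (-0.26) and Tiparp (0.01) did not pass either. Of 25 Nrf2 antioxidant genes 0 passed with limma and 8 had an unadjusted p under 0.05. Their median change was 0.24, with 21 of 25 changes above 0 and 11 genes in which all exposed rats were above all air rats. Over all genes the groups did not overlap in 12.8%. The mean of the Nrf2 list was 9.73 to 9.85 after smoke plus sand and 9.49 to 9.59 in air, with no overlap. Nearest to the threshold were Gsr, glutathione reductase (0.52, adjusted p = 0.0548), and Hmox1, heme oxygenase (0.83, adjusted p = 0.0936). Nqo1 and Gclc, standard Nrf2 targets, had changes of 0.26 and 0.34 with adjusted p of 0.797 and 0.27. Without rat 302 in the fit 3 of the 25 passed. Among antioxidant genes outside that list, and named after their values were seen, the mitochondrial Sod2 (0.91, adjusted p = 0.0108), the peroxiredoxin Prdx5 (0.57, adjusted p = 0.0136) and the glutathione transferase Gsta1 (0.51, adjusted p = 0.0124) rose. Sod2 lost its call without rat 406, Prdx5 without rat 102 or 404 and Gsta1 without rat 404.

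Epithelial, structural and stress lists held no gene past the threshold. Mucous and serous secretion genes had a median change of 1.42 over 8 genes with 0 past the threshold: Muc5b, an airway mucin, was at 9.56, 10.01, 11.46 and 11.07 after smoke plus sand and at 7.78, 8.18, 10.38 and 7.96 in air (1.95, adjusted p = 0.403). Rat 104 was again the high air rat, here and for Bpifa1, a secreted airway defence protein, at 11.77 against 6.93 to 7.03 in the other 3. Alveolar type 2 genes had a median change of -0.01, type 1 genes -0.16, extracellular matrix genes -0.08, proliferation genes 0.14, interferon-stimulated genes -0.39, subunits of oxidative phosphorylation -0.01 and ribosomal proteins -0.01, with 0 genes past the threshold in each. On arrays of excellent grade, 5 of the 13 interferon-stimulated genes passed as falls. Egr2 was the 1 of 11 immediate early genes that rose (0.76, adjusted p = 0.0221), and its call ended without rat 102, 105, 404 or 406.

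The remaining large changes belonged to genes of mixed roles. Among the 12 largest rises were Mreg, melanoregulin, a protein of organelle transport (1.43, adjusted p = 0.0218), and Plet1, a surface protein (1.35, adjusted p = 0.0275), each with a call that ended without any 1 of 5 rats, 102, 105, 404 and 406 being common to both. Among the 12 largest falls, Acsm5, a mitochondrial acyl-CoA synthetase, was 3.58-fold lower (-1.84 ± 0.44, adjusted p = 0.0425), at 7.09, 5.69, 5.64 and 5.39 against 7.58, 8.43, 7.74 and 7.43 in air, with rat 402 well above its mates. Spon2, the matrix protein mindin, fell by 1.18, Arsi, arylsulfatase I, by 0.81, Raver2, an RNA-binding protein, by 0.76, Rasgrp2, an activator of Rap1, by 0.72, and Prkce, protein kinase C epsilon, by 0.70. Of these, the call of Prkce ended without rat 103, that of Arsi without rat 102 or 404, that of Spon2 without any 1 rat of the 8, and those of Acsm5, Raver2 and Rasgrp2 without most of them, rats 102, 103, 104, 404, 405 and 406 being common to the 3.

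Smoke alone and sand alone were measured against the same 4 air rats, so their changes share those rats with the combined change. For Cxcl1 the changes were 1.95 after both, 2.11 after smoke and 0.64 after sand. For Gpnmb they were 1.36, 1.5 and 0.47, for Ctsd 0.83, 0.91 and 0.47, for C3 1.34, 1.43 and 0.98, for Per2 1.19, 1.21 and 0.32, and for Klf2 -1.15, -0.96 and -0.91. The difference of the combined group from smoke alone was tested directly, and for these genes its 95% confidence interval spanned 0: -0.71 to 0.39 for Cxcl1, -0.54 to 0.26 for Gpnmb, -0.29 to 0.14 for Ctsd, -0.51 to 0.32 for C3, -0.48 to 0.43 for Per2 and -0.57 to 0.17 for Klf2. A p that misses the threshold does not show that sand added nothing to smoke, and with 4 rats a group differences inside these bounds remain possible. For Lgals3 the interval was -0.44 to -0.03, for Klf4 -0.47 to -0.03 and for Cxcl6 0.11 to 0.63, with adjusted p of 1 for each.

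**Figure D4:**
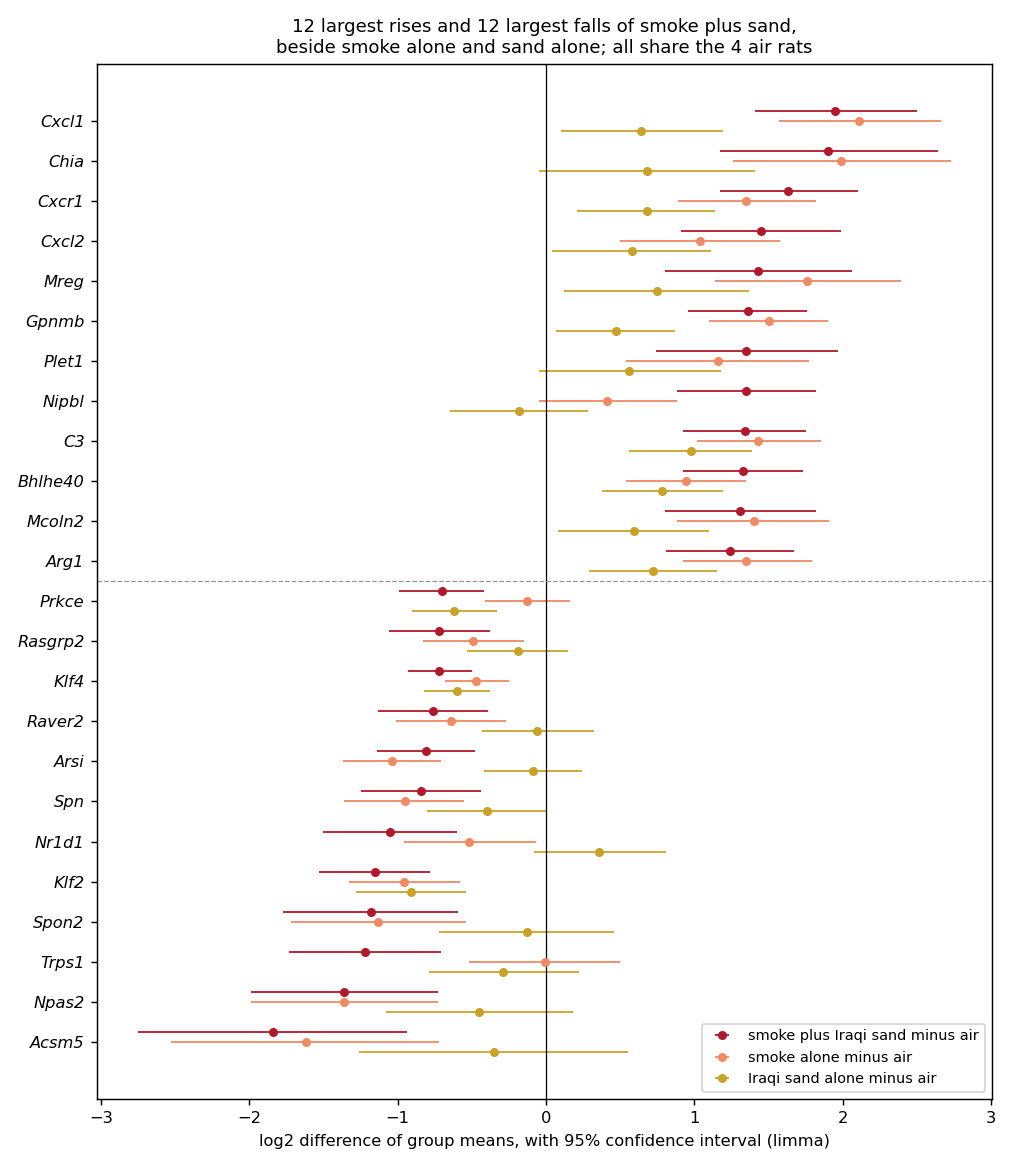
Log2 change from air, with 95% confidence interval, of the 12 largest rises and 12 largest falls of the combined exposure whose groups did not overlap, after smoke plus sand, smoke alone and Iraqi sand alone (n = 4 each, the same 4 air rats in all). The intervals after smoke plus sand and after smoke overlap for Cxcl1 (1.95 and 2.11) but not for Trps1 (-1.22 and -0.01).

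Against smoke alone, 2 of 14217 genes (0.0141%) passed in the smoke plus sand rats, and 544 had an unadjusted p under 0.05. Cped1, a little-studied gene with a cadherin-like domain, was at 8.67, 8.55, 8.37 and 8.34 after smoke plus sand, against 7.79, 7.69, 7.78 and 7.52 after smoke (0.79, interval 0.52 to 1.06, adjusted p = 0.038). Rab27b, a GTPase of vesicle secretion, was at 6.72, 6.55, 6.51 and 6.69 against 6.07, 6.12, 5.93 and 5.89 (0.62, interval 0.41 to 0.82, adjusted p = 0.038). In both genes the groups did not overlap, but the count was 0 when any 1 rat of the 8 other than rat 405 was left out, and 7 without rat 405. On the 8 arrays of the 2 groups alone 2 other genes passed, and neither Cped1 nor Rab27b did. Only Rab27b also passed against air (0.45, adjusted p = 0.0296), since Cped1 was at 8.08 to 8.36 in air, overlapping the smoke plus sand rats (0.27, adjusted p = 0.459). The other probe set of Rab27b changed by 0.22 from air (limma adjusted p = 0.407 over all probe sets).

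The interaction, which asks whether the effect of smoke differed with and without sand, passed for 1 gene (0.00703%), and 1257 had an unadjusted p under 0.05. It was again Cped1 (1.21 ± 0.18, adjusted p = 0.0251): smoke plus sand against sand alone, at 7.96, 7.42, 8.0 and 7.81, gave 0.69, and smoke against air gave -0.52. Leaving out any 1 of rats 102, 103, 203, 204, 205, 305, 402 or 404 left 0 calls. Without rat 301 the count was 5, without rat 302 it was 2 and without rat 405 it was 3. On the arrays of the 4 groups alone 0 genes passed, with 917 at an unadjusted p under 0.05, and on arrays graded excellent 28 passed, without Cped1. None of the 139 genes called against air passed for the interaction. The nearest among them were Card14 (-0.89), Lgals3 (-0.71) and Rora (1.51), each with an adjusted p of 0.128.

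Against sand alone 184 genes (1.29%) passed, 52 higher and 132 lower after smoke plus sand. When the arrays were centred on their medians the split was 51 higher and 69 lower, and when they were quantile normalized again 51 and 65. Rat 302 weighed on this comparison: without it 92 genes passed, 73 of them among the 184. Without rat 305 there were 703, without rats 402, 404, 405 or 406 there were 37, 114, 74 or 30, and on the 8 arrays of the 2 groups alone 0 genes passed, with 1193 at an unadjusted p under 0.05. The largest rises among genes without overlap were Nipbl (1.53), Rora (1.52) and Ccar1 (1.48), and the largest falls Fam3b (-1.60), Nr1d1 (-1.41) and Them5 (-1.02). Nipbl loads cohesin onto chromosomes, Ccar1 is a coactivator of transcription, Fam3b a secreted protein and Them5 a mitochondrial thioesterase. The probe sets of Ccar1 disagreed in size, with changes from air of 1.20, 0.63, 0.24 and 0.11. Within the smoke plus sand rats Ccar1 was at 9.41 and 9.51 in rats 402 and 406, of excellent RNA grade. In rats 404 and 405, of good grade, it was at 8.86 and 8.44. Zap70, the T cell receptor kinase, was at 7.74 to 8.23 after smoke plus sand and at 8.39 to 9.36 after sand, with rat 302 the highest (-0.84, adjusted p = 0.0442).

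A further group of called genes, picked after their values were seen, had smaller changes after smoke alone than after smoke plus sand. Nipbl was at 9.66, 8.79, 8.63 and 9.43 after smoke plus sand, against 7.83, 8.31, 7.23 and 7.72 in air (1.35 ± 0.22, adjusted p = 0.00398), with 7.84 to 8.44 after smoke alone. Rora, at 6.93 to 7.88 after smoke plus sand, was at 6.31 to 6.93 after smoke and 6.32 to 7.00 in air. Crim1, which binds growth factors of the TGF-beta family, was at 10.23, 8.98, 8.85 and 10.22 after smoke plus sand, against 8.51, 8.84, 8.07 and 8.34 in air, and at 8.36 to 8.86 after smoke. The carboxypeptidase Cpd (0.92), the transcription factor Klf13 (0.90) and Veph1 (0.89) rose likewise, with changes after smoke alone of 0.13, 0.20 and -0.05. On the lower side Trps1, a GATA-type repressor, was at 6.54, 7.32, 7.20 and 6.34 after smoke plus sand, against 8.19, 8.10, 8.23 and 7.76 in air (-1.22 ± 0.24, adjusted p = 0.0149), and at 7.99 to 8.12 after smoke. Mau2, the partner of Nipbl in the cohesin loader, fell by 0.63 (adjusted p = 0.0296), and Rasal2, a Ras GTPase activator, by 0.52 (adjusted p = 0.0224), with changes after smoke of -0.06 and 0.08. Tested directly against smoke alone, none of these 9 passed (adjusted p = 0.109 for Rasal2, 0.182 for Trps1 and 0.326 for Nipbl).

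Several measurements stand beside this group. Within the smoke plus sand rats, Nipbl, Crim1 and Cpd were higher, and Trps1 lower, by more than 0.5 in both rats of excellent grade (402 and 406) than in both rats of good grade (404 and 405). Over all genes 34 were higher and 28 lower by that gap, and those 4 were the called ones among them. All 4 air rats were excellent. The probe sets of a gene also differed. Of 4 probe sets for Nipbl 2 had changes of 1.35 and 1.28 and 2 had -0.25 and 0.09, of 4 for Trps1 1 had -1.22 and the others -0.05, 0.16 and 0.00, and of 5 for Mau2 1 had -0.63 and the others -0.11 to 0.07. The calls of Rora, Crim1, Cpd, Klf13, Veph1, Trps1, Mau2 and Rasal2 each ended without some rats, 102, 402 and 406 for every one of them. On the 8 arrays of the smoke plus sand and air rats alone, Trps1 (adjusted p = 0.0345) and Mau2 (0.0061) passed, and the other 7 did not, with adjusted p from 0.0531 for Nipbl to 0.155 for Cpd. The part of RNA quality in these changes was not tested.

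**Figure D5:**
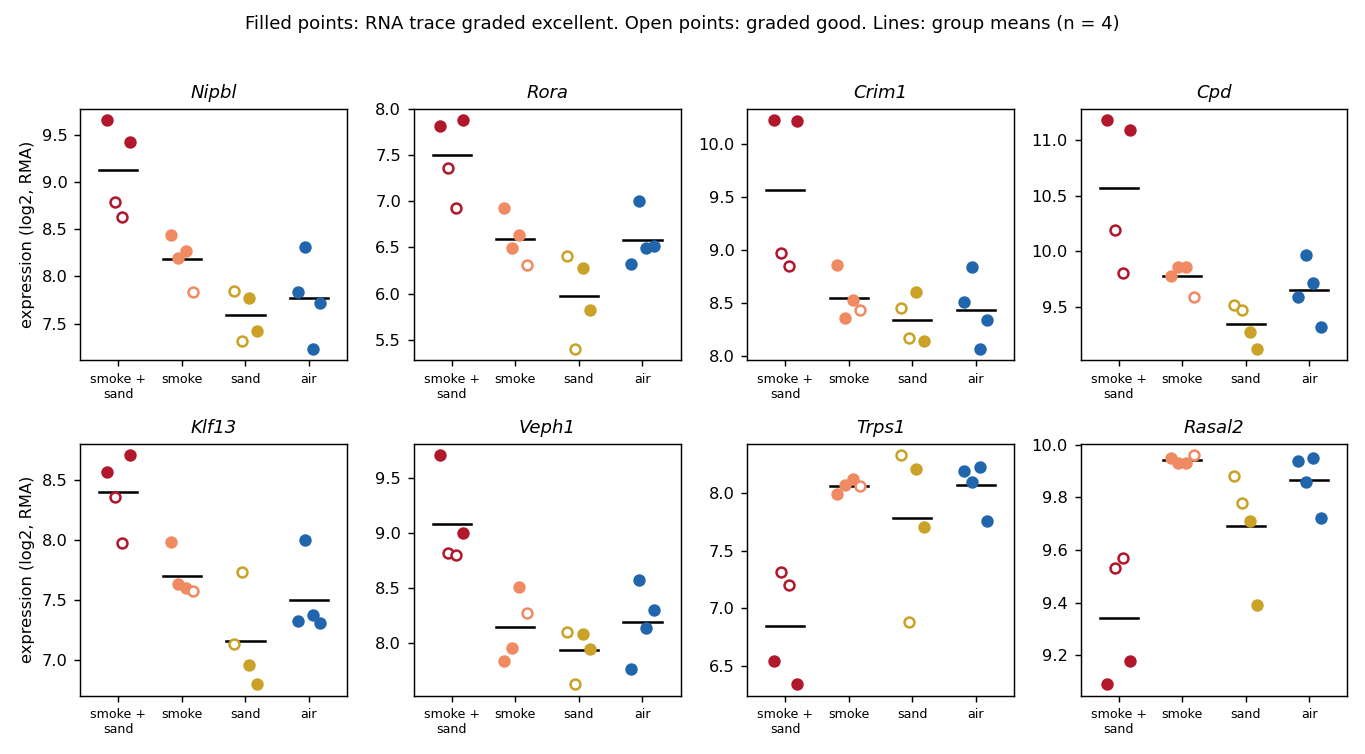
Log2 expression of 8 genes in each rat, filled where the RNA trace was graded excellent and open where good, with group means as lines (n = 4 per group). The smoke plus sand rats stand apart from the other 3 groups shown in Nipbl, Crim1 and Trps1 by mean, and filled and open points of that group separate in Nipbl, Crim1, Cpd and Trps1.

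The nearest exposure was smoke plus silica, in which a manufactured silica sand took the place of the Iraqi sand at the same labelled dose. Between smoke plus Iraqi sand and smoke plus silica 0 of 14217 genes (0%) passed with limma, 989 had an unadjusted p under 0.05, and with array quality weights 11 passed. The 3 smallest p-values belonged to Kctd4 (-0.68, adjusted p = 0.0976), Slbp, the histone mRNA-binding protein (-0.83, adjusted p = 0.0976), and Acyp2, acylphosphatase 2 (-0.75, adjusted p = 0.106). Slbp was at 7.56, 7.54, 7.38 and 7.44 after smoke plus Iraqi sand and at 8.23, 8.32, 8.36 and 8.33 after smoke plus silica, with no overlap. The genes just described lay on the same side of air in the smoke plus silica rats, which share those 4 air rats: Nipbl was at 8.44 to 9.18, Crim1 at 8.94 to 9.10, Rora at 6.96 to 7.45, Trps1 at 7.37 to 7.83 and Mau2 at 8.08 to 8.41. In rats given silica alone, a further group of the study, Nipbl was at 8.59 to 8.85, above all air rats (0.93, limma adjusted p = 0.165).

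The 4 smoke plus sand rats varied among themselves about as much as the air rats, with a median range per gene of 0.24 against 0.23. Rat 406 departed most, with 76 genes at least 2-fold above its mates and 19 below. Ccl2, a monocyte chemokine, was at 10.19 in it and at 7.11 to 7.15 in the other 3, against 5.92 to 7.11 in air. Also high in rat 406 were the acute phase genes Saa3 (10.69, against 8.10 to 8.41 in its mates) and Orm1 (8.70, against 5.67 to 6.29), the matrix gene Tnc (9.29, against 6.47 to 7.27) and the smooth muscle actin Actg2 (12.12, against 9.19 to 9.84). Rat 406 was without an RNA integrity number. Of the 42 called genes with several probe sets, 31 had all of them on 1 side. An exception was Rab14, a GTPase of endosomes, with -0.46 in the brightest of 5 probe sets (adjusted p = 0.00508 over all probe sets) and 0.19 to 0.37 in 3 others.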

How the data were processed

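The deposited series table holds log2 expression values of 31099 probe sets on 24 Affymetrix Rat230_2 arrays, made by the authors with RMA (robust multi-array average: background correction, quantile normalization and probe summary) per the submitters' processing notes, whose version is not given in the sources used here. Per the labels' protocols, tissue was held in an RNA preservative, and Trizol extracts were cleaned on a column. Lobes came from different rats, 4 of the 17 named per group. No counts stand behind array values, so precision is limited by how many arrays there are.

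Samples were grouped by the treatment codes of their titles. After 57 control probe sets were set aside, 20826 probe sets had 1 gene symbol, 436 several and 9780 none. The brightest probe set over all arrays stood for each of 14217 genes, of which 4525 had several. Symbols were checked against RefSeq through Entrez IDs, which matched for 20758 probe sets and changed 0 symbols. The values were used as deposited, with no further scaling. One limma fit (version 3.58.1, R 4.3.3) over the 6 groups of 4 rats gave all comparisons from a shared spread with 18 residual degrees of freedom, and p-values were adjusted over all genes by the Benjamini-Hochberg method, with 0.05 as the threshold. The median residual SD was 0.153. The fit was tested on simulated data.

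Named genes were the 12 largest rises and falls past the threshold without overlap, up to 3 genes of each of 31 lists by the size of the test statistic, and a set of standard lung and exposure genes. In the other comparisons they were the 5 largest each way. All other genes, further list members such as Per2, Cd68 and Cxcl6 among them, were named after their values were seen. The text marks only some of these. The members and the lists (396 of 453 entries measured) were chosen with earlier results of these data known. Promoter windows and motif counts came from RefSeq sequence on GRCr8. Alternatives covered the shrinkage, the level filter, the probe set rule, the arrays in the fit, quality weights, scaling, a fold threshold, RNA quality and each rat left out.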

Additional observations from a re-analysis of the deposited data

Results flagged for a closer look

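Among 119 genes looked at in both groups, 238 gene and group pairs in all, a single rat lay far from its 3 mates in 25, by Dixon's gap test. Chance gives such a rat in about 1 in 20 groups. Of the 25 pairs, 9 were in smoke plus sand rats and 16 in air rats, with rat 406 in 6 and rat 104 in 8.

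In the smoke plus sand group, rat 406 was high in the chemokine Ccl2 (10.19, others 7.11 to 7.15), the collagen Col1a1 (10.88, others 9.42 to 9.53), the metallothionein Mt2A (10.72, others 9.55 to 9.67) and the mitotic genes Top2a (7.76, others 6.82 to 6.94) and Aurka (7.45, others 7.22 to 7.23). It was low in Cav1, caveolin-1 (13.32, others 13.55 to 13.56). Rat 405 was low in Cxcl2 (6.70, others 7.61 to 7.76), rat 404 high in Arg1 (9.56, others 9.02 to 9.09) and rat 402 high in the gelatinase Mmp2 (9.89, others 9.76 to 9.77).

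In the air group, rat 104 was high in the cardiac genes Ttn (9.13, others 6.42 to 6.53) and Ryr2 (7.95, others 5.18 to 5.41). It was also high in the airway genes Bpifa1 (11.77, others 6.93 to 7.03) and Muc5b (10.38, others 7.78 to 8.18), in Acta2, smooth muscle actin (9.70, others 9.28 to 9.34), in Spn (10.48, others 9.86 to 9.89) and in Gclc (8.73, others 8.47 to 8.51), and low in Chia (9.95, others 11.90 to 12.18). Rat 105 was high in Bhlhe40 (7.39, others 7.21 to 7.23), Gsr (8.46, others 7.96 to 8.03) and Il1b (9.65, others 8.57 to 8.73). Rat 102 was low in Ctsd (12.25, others 12.45 to 12.49) and high in the monooxygenase Cyp4b1 (12.85, others 12.61 to 12.64). Rat 103 was high in Mmp14 (9.44, others 9.05 to 9.12), Sdf2l1 (9.58, others 9.26 to 9.30) and Cyp51 (9.26, others 8.96 to 8.97).

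Cped1 differed in its response to smoke with and without sand, with an interaction of 1.21 (limma, adjusted p = 0.0251). It did not pass on the arrays of the 4 groups alone, nor on arrays graded excellent. Of 10216 probe sets with several symbols or none, which the gene comparisons leave out, 168 passed the threshold against air, 78 higher and 90 lower after smoke plus sand.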

How the results depend on the processing

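Of the 119 named changes against air, 32 passed, and 0 of these changed direction under any alternative run. Of the 87 others, 18 changed sign under 1 or more alternatives, with 0 past the threshold there. On the log2 scale, with RNA integrity as a covariate, Actg2 was at -0.47, Des -0.29, Top2a -0.028, Cyp51 -0.16, Ttn 0.037, Plin1 0.15, Cfd 0.15, Slc4a1 -0.063, Alas2 -0.13, Cyp1b1 0.070 and Scgb1a1 0.018. On the same arrays without it, Actg2 was at -0.42, Des -0.27, Cyp51 -0.011, Ttn 0.051, Plin1 0.12, Cfd 0.050, Slc4a1 -0.043, Alas2 -0.0076, Cyp1b1 0.17 and Il1b -0.046. With array quality weights, Actg2 was at -0.13, Des -0.077, Plin1 0.083, Cfd 0.058 and Cyp1b1 0.013. Without rats 302, 104 and 604, Ttn was at 0.049, Plin1 0.070, Cyp1b1 0.074, Sftpc -0.00013 and Col1a1 0.17, and on excellent arrays Acta2 was at 0.066, Col1a1 0.31 and Bpifa1 -0.0063. With each rat left out, Actg2 ran from -0.51 to 0.47, Des from -0.38 to 0.29, Ttn from -0.85 to 0.049, Lrrn4 from -0.41 to 0.0055, Msln from -0.33 to 0.044, Plin1 from -0.20 to 0.070, Slc4a1 from -0.052 to 0.22, Alas2 from -0.079 to 0.20, Cyp1b1 from -0.42 to 0.074, Col1a1 from -0.43 to 0.17, Scgb1a1 from -0.056 to 0.0079 and Sftpc from -0.00013 to 0.029. Against air, where 139 genes passed, the count was 206 on the arrays of both groups alone, where 38 of the 139 calls ended, 1172 with array quality weights, 83 with a 1.5-fold threshold, 13 with RNA integrity as a covariate, 7 on the same arrays without it, 564 without rat 302, 376 without rats 302, 104 and 604, 433 on arrays graded excellent (chosen after seeing the data) and 53 to 120 with each rat of both groups left out. Against smoke (2 genes), it was 1 among genes at or above the median level, 17 with weights, 0 with quantile normalization, 0 and 0 on the arrays with an RNA integrity number with and without it, 5 without rat 302, 6 without the 3 rats, 77 on excellent arrays and 0 to 7 with each rat left out. Against sand (184), it was 0 on the arrays of both groups alone, 553 with weights, 120 with centring, 116 with quantile normalization, 58 at 1.5-fold, 10 and 21 with and without the integrity number, 92 without rat 302, 98 on excellent arrays and 30 to 703 with each rat left out. For the interaction (1), it was 0 on the groups' own arrays, 54 with weights, 0 and 0 with and without the integrity number, 2 without rat 302, 28 on excellent arrays and 0 to 5 with each rat left out. Against smoke plus silica (0), it was 1 on the groups' own arrays, 11 with weights, 1 with quantile normalization, 31 on excellent arrays and 0 to 1 with each rat left out. The causes were not tested. On the arrays of both groups alone, 7 named calls against air ended, those of Chia, Nipbl, Mreg, Spon2, Cd2, Egr2 and Arid5b. With probe sets of a gene averaged, Nipbl changed by 0.62 and no longer passed. No paired analysis was possible because the groups share no animal numbers.

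With 4 rats a group and a median residual SD of 0.153, the fit resolves small changes poorly. RNA integrity did not overlap between the groups where known, so its part cannot be told apart from the exposure in those rats. Probe sets measure stretches of a transcript, and those of a gene often disagreed. The hour of sampling was not known.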

Other observations

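Genes that differed between smoke plus sand rats by RNA grade, and were not called against air, include Palld and Bmpr2, named here after their values were seen. Palld, the actin-bundling protein palladin, was at 10.11 and 10.16 in the rats of excellent grade (402 and 406) and at 8.84 and 8.58 in those of good grade (404 and 405). Bmpr2, the receptor for bone morphogenetic proteins that guards the pulmonary arteries, was at 11.06 and 10.69 against 9.90 and 9.39.

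Rat 406 was also low in Cyp2a3, a lung and nasal cytochrome P450, by 2.32 relative to the mean of its mates. Among the probe sets without a single gene symbol, the one with the smallest p had means of 6.30 after smoke plus sand and 7.47 in air (-1.16, limma adjusted p = 0.00065 over these probe sets), and the next had means of 5.35 after smoke plus sand and 4.16 in air (1.19, adjusted p = 8.11e-04).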
